A study of Homo sapiens with 6 samples.

Results

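The ISG15 conjugation system is the set of proteins that attach the ubiquitin-like modifier ISG15 to other proteins and take it off again. Its members here were the 5 genes Isg15, Uba7, Ube2l6, Herc6 and Usp18, chosen by symbol from the 22989 genes of the deposited count table, and each of the 5 passed the filter on low counts. RNA was sequenced from 6 libraries, 3 labelled LINC00115 KD and 3 labelled WT, the control. All 6 are described as breast cancer stem cells (BCSC) of paclitaxel (PTX)-resistant MDA-MB-231, a line of human triple-negative breast cancer cells, and the study obtained its BCSC by sorting for high aldehyde dehydrogenase activity. In the KD cells the long non-coding RNA LINC00115 was targeted by short hairpin RNA (shRNA), and the study describes its expression comparison as one with its second shRNA, sh115-2, while the labels describe the KD libraries as sh115-1, sh115-2 and sh115-3, so whether these names mark replicates of 1 shRNA or different shRNAs is not settled here. The study's knockdown experiments used a control shRNA, whereas the labels call the control WT. The comparison of KD with control addresses how expression differs between libraries labelled LINC00115 KD and libraries labelled WT.

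ISG15 is made in large amounts after type I interferon. As with ubiquitin, an activating enzyme (E1), a conjugating enzyme (E2) and a ligase (E3) pass it in turn to a lysine of the target. UBA7 is the E1, UBE2L6 is the main E2, and the ligase is a HERC protein that sits on ribosomes and so tags newly made proteins, HERC5 in humans and Herc6 in mice, which have no Herc5 gene. USP18 removes ISG15 from its targets, and it also binds the receptor chain IFNAR2 and dampens interferon signalling. The genes of the system are themselves induced by interferon, through transcription factors such as STAT2 and IRF9, which bind a promoter motif called the interferon-stimulated response element (ISRE).

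The promoter of human ISG15 is printed to show this motif, since ISG15 is the modifier on which the other members act. RefSeq promoter windows (GRCh38.p14) were matched for 3 of the 5 members, ISG15, UBE2L6 and HERC6. The window covers the 250 bases before the transcription start, chr1:1013247-1013496 on the plus strand, 5′ to 3′, and the capitals mark matches to GAAANNGAAA.
ISG15: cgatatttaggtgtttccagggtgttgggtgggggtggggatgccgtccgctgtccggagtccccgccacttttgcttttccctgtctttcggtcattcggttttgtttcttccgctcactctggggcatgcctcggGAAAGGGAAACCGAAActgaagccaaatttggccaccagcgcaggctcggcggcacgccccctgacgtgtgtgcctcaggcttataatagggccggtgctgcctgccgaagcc
The motif was searched on both strands, as GAAANNGAAA and as its reverse complement TTTCNNTTTC. It matched 2 times in this window, as GAAAGGGAAA from base 113 and GAAACCGAAA from base 107 before the start, and the matches share 4 bases. Of 27305 genes with a promoter window of this length, 1014 (3.71%) held a match. The windows of UBE2L6 (2 of them) and HERC6 held none, which says only that these letters are not in those windows. The sequence is human, while the genes of the table carry symbols in mouse style.

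Several facts of the whole table bear on every value below. Of its 22989 symbols, 4648 are Gm names and 1129 are Rik names, as given to mouse genes of unknown function, and the table lists 0 genes named Herc5 and 0 named LINC00115, so the knockdown could not be checked and each direction rests on the labels. The symbols are thus those of mouse genes, although the labels name human cells and the sources name a human genome. Whether the reads came from mouse cells or from another experiment could not be settled from these sources. No value below is shown to come from MDA-MB-231 cells, and every value is given under its label with this limit. Of the markers of the labelled cells, Vim and Cd44, both high in MDA-MB-231, had at least 126885 and 32751 counts in every library and the keratin gene Krt18 at least 4856, whereas Epcam had at most 5 and Aldh1a3 at most 4 counts. Of the 10 markers listed, 7 were tested, of which 6 rose and 2 of these were called higher. The called genes were Aldh1a1, an aldehyde dehydrogenase, with 12, 8 and 17 counts in the control and 52, 39 and 41 in the KD libraries, and Esr1, the estrogen receptor that triple-negative cells lack, with 29, 26 and 24 against 105, 82 and 104 counts. Krt8 (log2 fold change 0.67), Krt18 (0.87), Erbb2 (0.70) and Vim (0.13) rose as well, and the part of these differences in the results on the ISG15 genes was not tested. The libraries held 36979221 to 38799331 counts. In edgeR's quasi-likelihood test of 13497 genes, a gene was called at an adjusted p under 0.05 and a fold change over 2, and "rose" or "fell" below means an adjusted p under 0.05 alone. By the first rule 10.2% of the genes tested were called higher and 9.98% lower in the KD libraries, by the second 36.7% rose and 36.7% fell, and the median log2 fold change was −0.0061. The study calls its data representative of independent experiments in general terms, but no source ties the libraries of a group to separate cultures, so the p-values measure the spread between these samples, which may be technical.

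All 5 members of the ISG15 system were higher in the LINC00115 KD libraries, by 3.42-fold to 4.99-fold, and 5 of 5 were called. The background is 10.2% of all genes called higher, and 37.8% of all genes had every KD library above every control library. Summed over the 5 genes, the level went from 232 to 254 CPM (counts scaled to a common library total) in the control libraries to 968 to 976 CPM in the KD libraries, a 4.03-fold difference. The increase covered the modifier, the E1, the E2, the removing protease and Herc6, which is the ligase in mice. The human ligase gene, HERC5, was not among the genes counted, so the ligase step of human cells was not measured. In bulk RNA, more RNA per cell and more cells that express a gene cannot be told apart.

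Isg15, which encodes the modifier itself, had 79.7, 74.2 and 87.2 normalized CPM (library totals scaled by the TMM method) in control replicates 1 to 3 and 322, 309 and 317 in KD replicates 1 to 3. The lowest KD library was far above the highest control library. The means were 80.4 ± 6.51 and 316 ± 6.55 (SD, n = 3 libraries each), a 3.93-fold increase and a log2 fold change of 1.97 with a standard error of 0.04 (edgeR's quasi-likelihood test, adjusted p = 3.70e-29). The difference was larger than the spread between replicates. At 2801 to 12438 counts a library, counting error is small beside it.

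**Figure D1:**
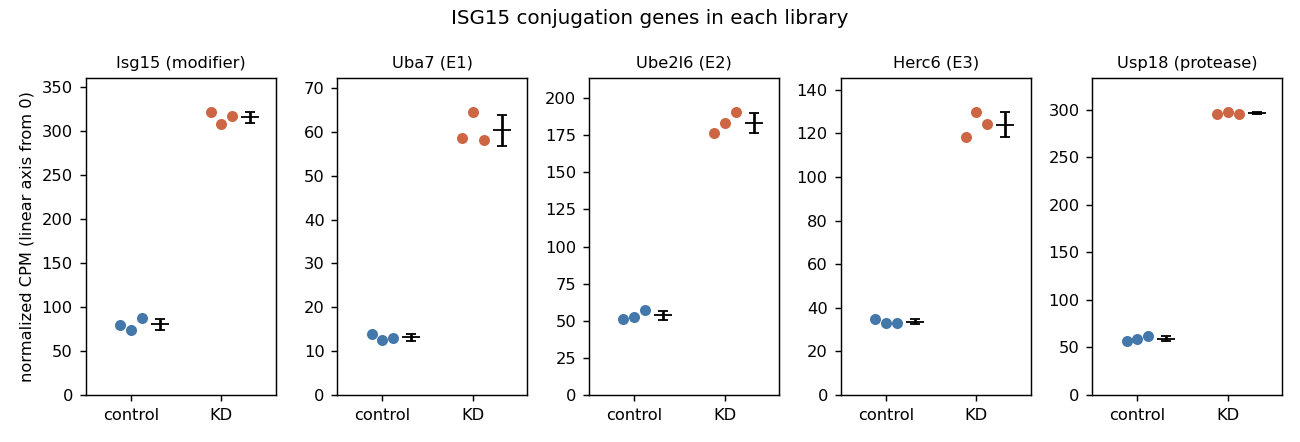
Normalized CPM (linear axes from 0) of the 5 genes of the ISG15 system in each library, with control libraries in blue, KD libraries in orange and the mean ± SD of 3 libraries in black. In each panel the KD libraries sit above the control libraries with no overlap, from 3.42-fold for Ube2l6 to 4.99-fold for Usp18.

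Uba7 encodes the E1 that activates ISG15 at the cost of ATP and is the first step of conjugation. It had the fewest counts of the 5 members, 472 to 525 in the control and 2210 to 2368 in the KD libraries. Its normalized CPM were 13.9, 12.5 and 12.97 in the control and 58.6, 64.5 and 58.2 in the KD libraries. The groups did not overlap, and KD replicate 2 was the highest library. Uba7 was 4.60-fold higher in KD, a log2 fold change of 2.20 with a standard error of 0.07 (edgeR's quasi-likelihood test, adjusted p = 1.26e-24).

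Ube2l6 encodes the E2 that takes ISG15 over from UBA7. It stood at 51.2, 52.6 and 57.1 normalized CPM in the control and at 177, 183 and 190 in the KD libraries, again without overlap. Its mean went from 53.6 ± 3.10 to 183 ± 6.88 (SD, n = 3 each). With 3.42-fold, a log2 fold change of 1.77 with a standard error of 0.05 (edgeR's quasi-likelihood test, adjusted p = 3.35e-27), Ube2l6 had the smallest increase of the 5 members.

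Herc6, the ligase of the system in mice, had 34.8, 32.9 and 33.2 normalized CPM in the control and 118, 130 and 124 in the KD libraries. Its 3 control libraries lay close together, at 33.6 ± 1.04 (SD, n = 3), and each KD library was above each of them. Herc6 was 3.69-fold higher, a log2 fold change of 1.88 with a standard error of 0.05 (edgeR's quasi-likelihood test, adjusted p = 8.77e-27).

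Usp18, which encodes the protease that removes ISG15, had the largest increase of the 5 members. It went from 56.5, 59.2 and 62.3 normalized CPM in the control to 296, 297 and 296 in the KD libraries. The KD libraries differed from each other by less than those of any other member (SD 0.816 at a mean of 296, n = 3). At 10916 to 11453 counts a library, counting error alone is larger than this SD, which is thus not read as a trait of Usp18. The increase was 4.99-fold, a log2 fold change of 2.32 with a standard error of 0.04 (edgeR's quasi-likelihood test, adjusted p = 4.22e-32), and 493 of the 13497 genes tested had a larger log2 fold change. At the other end of the 5, 686 genes (5.08%) were at or above the log2 fold change of Ube2l6.

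Whether the members rose by the same amount was asked with the ratio of their counts within each library, in which library scaling cancels, for all 10 pairs of members. The ratio of Ube2l6 to Usp18 changed most. On the log2 scale it was −0.14, −0.17 and −0.13 in the control and −0.75, −0.70 and −0.64 in the KD libraries, a 1.46-fold shift toward Usp18. The ratio of Isg15 to Usp18 was 0.50, 0.33 and 0.48 in the control and 0.12, 0.05 and 0.10 in the KD libraries, a 1.27-fold shift toward the protease. Herc6 shifted 1.36-fold against Usp18, with log2 ratios of −0.82 ± 0.11 in the control and −1.26 ± 0.06 in the KD libraries (SD, n = 3 each).

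Among the conjugating enzymes, the ratio of Uba7 to Ube2l6 rose 1.34-fold and that of Uba7 to Herc6 1.25-fold in the KD libraries. The groups did not overlap in 7 of the 10 pairs, the remaining ones being Isg15 to Uba7 (1.17-fold lower) and Isg15 to Ube2l6 (1.15-fold higher). They overlapped for Isg15 to Herc6, Uba7 to Usp18 and Ube2l6 to Herc6 (1.07-fold, 1.09-fold and 1.08-fold). With 3 libraries against 3 the exact two-sided permutation test cannot give less than 0.1, which is its p in each of the 7 pairs (adjusted over the 10 pairs 0.143), so that unequal increases are described here and did not pass a test.

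**Figure D2:**
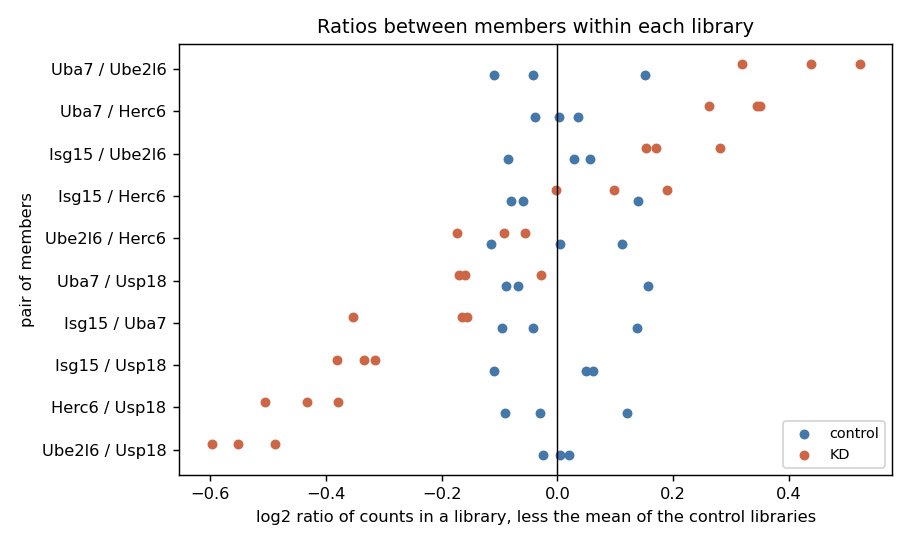
Log2 ratio of the counts of a pair of members in each library, less the mean of the 3 control libraries (blue, control; orange, KD; 10 pairs on the vertical axis). The ratios of Ube2l6, Herc6 and Isg15 to Usp18 lie lower in each KD library than in any control library, by 1.46-fold, 1.36-fold and 1.27-fold in the mean.

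The other enzymes reported to act on ISG15 did not share increases of this size. They were listed together with Skp2, which acts on USP18 and not on ISG15. Of the 9 genes of this list, 8 were tested, of which 2 rose, 4 fell and 2 did not pass. Over all genes tested, 36.7% rose and 36.7% fell. Of the 8, 0 were called, beside 10.2% higher and 9.98% lower of all genes. The median log2 fold change was −0.17 beside −0.0061 for all genes tested. Without Skp2, 7 were tested, of which 2 rose, 3 fell and 2 did not pass, and the middle value of log2 fold change was that of Arih1, −0.04. Trim25, an interferon-induced ligase that also acts with ISG15, rose from 183 ± 3.57 to 277 ± 6.32 normalized CPM (SD over 3 libraries each), or by a log2 fold change of 0.59 (adjusted p = 1.04e-16, edgeR's quasi-likelihood test), and each KD library was above each control library. Arih1, a further ligase that has been reported to work with UBE2L6, had a log2 fold change of −0.04 with a standard error of 0.04 (edgeR's quasi-likelihood test, adjusted p = 0.349). Of the proteases that cleave ubiquitin and can react with ISG15, Usp16 rose (0.54), Usp5 (−0.45), Usp21 (−0.58) and Usp2 (−0.91) fell, Usp14 had a log2 fold change of 0.05 without passing the test, and Usp13, with 1 to 5 counts a library, was not tested. Usp2 had only 32 to 85 counts a library and no longer passed the test when control replicate 1 was left out (edgeR's quasi-likelihood test, adjusted p = 0.0561). Skp2, part of the ubiquitin ligase that targets USP18 for degradation, fell from 98.1 ± 3.14 to 79.6 ± 2.14 normalized CPM, a log2 fold change of −0.30 (adjusted p = 4.07e-07, edgeR's quasi-likelihood test).

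Free ISG15 that leaves the cell binds the leukocyte integrin LFA-1, made of the chains Itgal and Itgb2. Itgb2 rose from 48.0 ± 3.05 to 77.2 ± 3.77 normalized CPM, a log2 fold change of 0.68 (adjusted p = 2.43e-13, edgeR's quasi-likelihood test). Itgal had 0 counts in each control library and 5, 2 and 7 counts in the KD libraries, too few for the test, so LFA-1 was listed with 1 of its chains at or near 0.

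Each member was next set beside the other genes of its family. The background for each family is 36.7% of all genes rising and 36.7% falling, with 10.2% called higher and 9.98% lower. Among the 13 other ubiquitin and ubiquitin-like modifiers, 12 were tested, of which 4 rose, 7 fell, 1 did not pass and 0 were called (median log2 fold change −0.28). Of these, Sumo3 had the largest increase, 0.65, and the ribosomal fusion gene Fau the largest decrease, −0.59. The ubiquitin gene Ubb stood at 669 ± 6.56 and 667 ± 17.5 normalized CPM, beside the 3.93-fold increase of Isg15. Ubd, which encodes the interferon-inducible modifier FAT10, had 0 counts in the control and 2, 7 and 6 in the KD libraries and was not tested.

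Of the E1 enzymes that activate other modifiers, 9 were tested. Of these, 3 rose, 2 fell and 4 did not pass, and the median was 0.04. Atg7, the E1 of autophagy, was called higher (log2 fold change 1.05, adjusted p = 6.41e-14, edgeR's quasi-likelihood test), and Mocs3, the E1 of URM1, was too (1.03), but Mocs3 lost its call under upper quartile scaling (0.99), without control replicate 2 (0.99) and without KD replicate 3 (0.94). The main ubiquitin E1, Uba1, had a log2 fold change of −0.13. 0 of the 9 had a larger log2 fold change than Uba7.

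The E2 and ligase families were measured in the same way. Of the 32 other genes whose symbols start with Ube2, 13 rose, 11 fell and 8 did not pass, and 1 was called, Ube2t, the E2 of the Fanconi pathway, which was lower (log2 fold change −1.10). With upper quartile scaling the split was 12 and 12. The closest relative of Ube2l6, the ubiquitin E2 gene Ube2l3, had 8647 to 8847 counts in the control and 8282 to 8708 in the KD libraries (log2 fold change −0.05, standard error 0.03, adjusted p = 0.204 in edgeR's quasi-likelihood test, and 0.0193 under upper quartile scaling, with a log2 fold change of −0.09). Among the HERC genes, Herc2 (0.82), Herc1 (0.43) and Herc3 (0.26) rose and Herc4 (−0.07) did not pass the test, and 0 of these 4 were called. Herc3 did not pass without KD replicate 1 (0.20, adjusted p = 0.079 in edgeR's quasi-likelihood test).

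Usp18 stood beside 52 other genes whose symbols start with Usp and a digit, almost all of them deubiquitinases, of which 49 were tested. Of these, 22 rose, 21 fell and 6 did not pass, 6 were called higher and 3 lower, and the median log2 fold change was 0.06. The largest decreases were those of Usp35, from 17.5 ± 1.88 to 4.37 ± 0.536 normalized CPM (SD, n = 3 each), and Usp49 (log2 fold change −1.18). Only Usp17lc and Usp17lb, with at most 5 counts in any control library and 18 to 81 counts in the KD libraries, had larger log2 fold changes than Usp18. They belong to a family of near-identical copies, and the way reads were divided among copies is not known here. Usp17le, of the same family, was also called higher (1.83). Usp24, just past the fold threshold (1.03), was under it with upper quartile scaling (0.99).

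**Figure D3:**
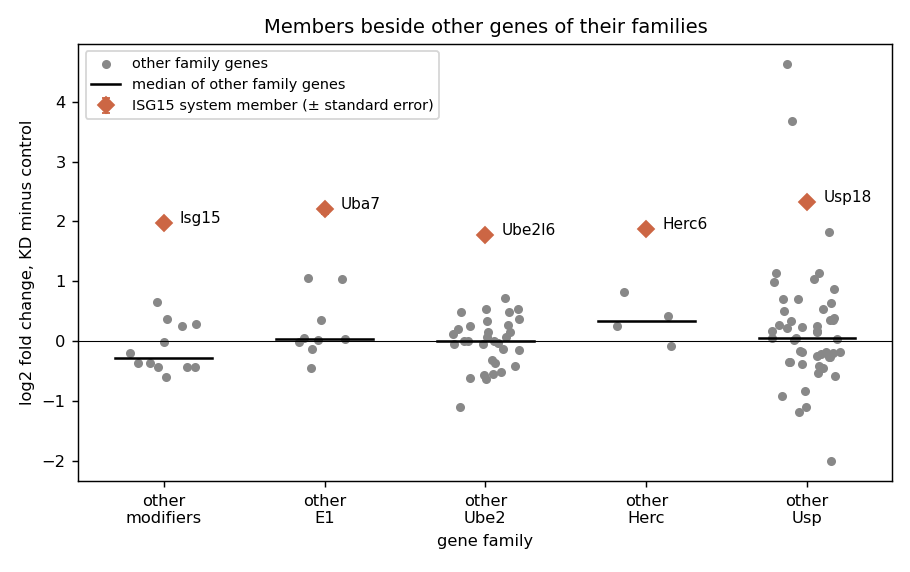
Log2 fold change (KD minus control) of each member of the ISG15 system (orange, ± standard error) and of the other tested genes of its family (grey, with the median as a black line). The members lie between 1.77 and 2.32, and the family medians between −0.28 and 0.35.

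The genes that carry the interferon signal to the members split into those that rose with them and those that fell. Of 15 genes listed, 7 rose and 8 fell, beside 36.7% rising and 36.7% falling over all genes tested. Called were 5 higher and 1 lower, against 10.2% and 9.98% of all genes, and the median log2 fold change was −0.28. Stat2 went from 52.5 ± 4.35 to 226 ± 5.05 normalized CPM (SD over 3 libraries each), or by a log2 fold change of 2.11 (edgeR's quasi-likelihood test, adjusted p = 3.59e-29), and its groups did not overlap. Irf9 rose less, from 49.4 ± 4.24 to 101 ± 2.50, a change of 1.04, which dropped below the fold threshold under upper quartile scaling (0.997) and without control replicate 1 (0.98). Irf7, an interferon-induced factor that drives interferon genes, had the largest increase of the list, from 71.5 ± 2.09 to 454 ± 12.1 normalized CPM, a change of 2.67. Irf1, an interferon-gamma target, rose by 0.91, and Socs1, a feedback inhibitor of JAK kinases, was called higher (1.15).

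The receptors and kinases of interferon signalling lay mostly lower in the KD libraries. Ifnar1, a chain of the type I interferon receptor, fell (−0.54), while Ifnar2, the chain that USP18 binds, rose (0.27). The kinases Tyk2 (−1.30), Jak2 (−0.59) and Jak1 (−0.28) fell, and Tyk2, which pairs with IFNAR1, was the one gene of the list called lower, from 50.6 ± 4.22 to 20.6 ± 0.484 normalized CPM. Both chains of the interferon-gamma receptor fell, Ifngr2 by 0.80 and Ifngr1 by 0.30 on the log2 scale. The sensor-activated factor Irf3 fell (−0.41), and so did the feedback inhibitor Socs3 (−0.55).

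**Figure D4:**
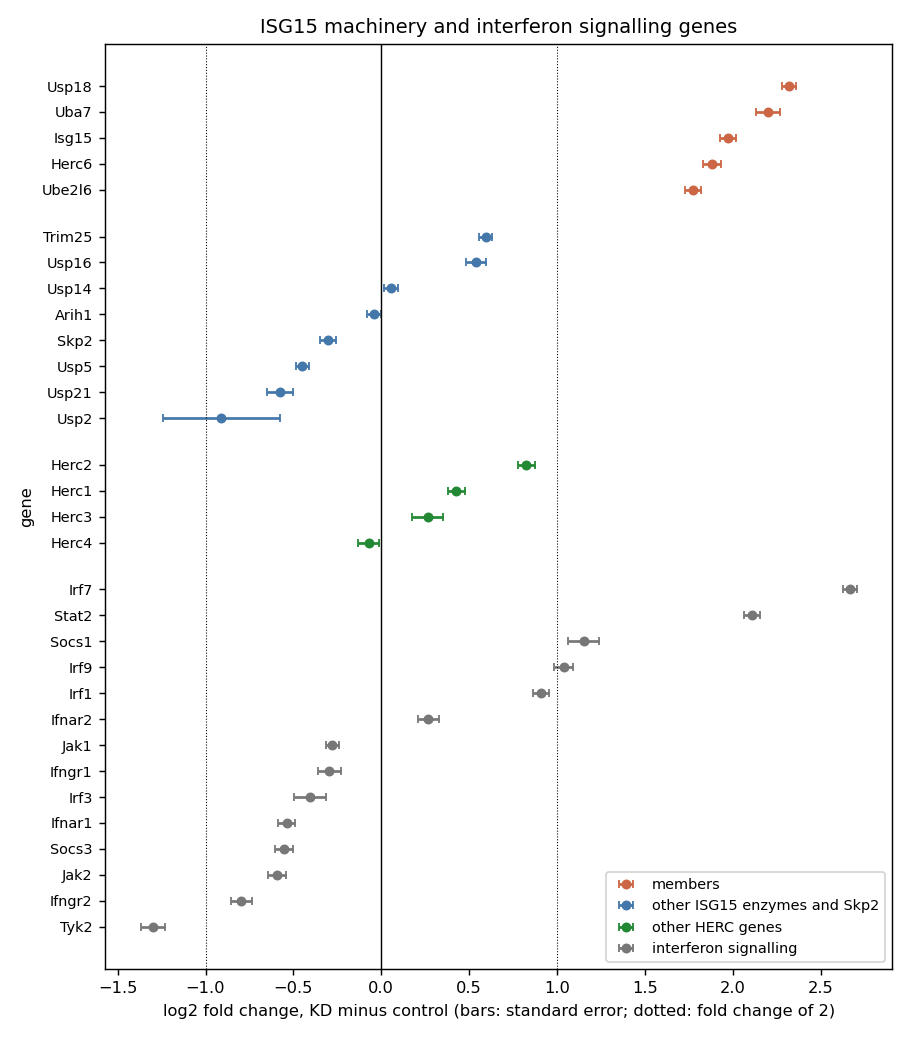
Log2 fold change (KD minus control, horizontal axis) with its standard error for the 5 members, the other ISG15 enzymes with Skp2, the other HERC genes and the interferon signalling genes reported here, with dotted lines at a fold change of 2. The members sit at 1.77 to 2.32, near Stat2 and Irf7, and the other ISG15 enzymes sit between −0.91 and 0.59.

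The interferons themselves were barely counted. Of 21 interferon genes listed, 10 are in the table, and 6 of these had at most 3 counts in every library. The one that passed the filter was Ifnb1, the gene of interferon beta, with 1, 5 and 1 counts in the control and 40, 66 and 87 in the KD libraries. Its KD libraries were all above its control libraries, at 0.0618 ± 0.0612 against 1.71 ± 0.633 normalized CPM (SD, n = 3 each, adjusted p = 1.56e-08, edgeR's quasi-likelihood test), a small level on few counts. The size of the change depended on control replicate 2, the control library with 5 counts. The log2 fold change was 4.71 with all libraries, 5.84 without control replicate 2 and 4.37 without control replicate 1 or 3. Too few counts for the test were found for Ifna4, with 0 in each control library and 2, 5 and 1 in the KD libraries, and for Ifnz, which went the other way with 6, 2 and 5 in the control and 0, 1 and 0 in the KD libraries.

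Proteins reported to carry ISG15 include interferon-induced and housekeeping ones. Of 21 symbols listed, 19 are in the table and were tested. Of these, 9 rose and 10 fell, where 36.7% of all genes rose and 36.7% fell. Called were 3, all higher (median log2 fold change −0.11), against 10.2% of all genes called higher. Among them were Ifit1, an RNA-binding antiviral protein (2.94), and Ifih1, the RNA sensor MDA5 (2.23). Ddx58, the sensor RIG-I, rose by 0.98, just under the fold threshold, and was past it without control replicate 3 (1.01). Eif2ak2, the kinase PKR, and Trim25 rose by 0.59 each. The ubiquitin E2 genes Ube2e1 (0.49) and Ube2n (0.16) and the cap-binding gene Eif4e2 (0.16) rose less. Among those that fell were the interferon signalling genes Irf3 (−0.41) and Jak1 (−0.28), the signalling enzymes Mapk3 (−0.74), Plcg1 (−0.59) and Ppm1b (−0.36), the membrane-sorting genes Tsg101 (−0.47) and Chmp5 (−0.36), and the replication clamp gene Pcna (−0.17). RNA levels of these genes say nothing of how much ISG15 their proteins carry, which was not measured in these data.

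Markers of other cell types, some of which differed between the groups, are given beside the members. Of 15 leukocyte markers, 12 are in the table and 6 of these were tested. Of the 6, 4 were called higher and 0 lower, beside 10.2% and 9.98% of all genes tested. The summed level of the 12 was 72.3 to 87.3 CPM in the control and 143 to 159 CPM in the KD libraries. The 4 were S100a9, Lyz2, Cd74 and S100a8, and S100a8 alone had 1213 to 3831 counts a library. The defining marker Ptprc (CD45) had 5 to 13 counts, Csf1r at most 3 and Cd3e 0 in every library. Cd68, a macrophage marker, had 1397 to 1925 counts a library, at 42.8 ± 7.38 and 47.2 ± 2.25 normalized CPM (SD, n = 3 each). It did not pass the test (edgeR's quasi-likelihood test, adjusted p = 0.0901). Without control replicate 1 it did (log2 fold change 0.29, adjusted p = 0.000184 in edgeR's quasi-likelihood test). Cd68 and S100a8 made up most of the sum. Of 10 lung epithelium markers, 10 were called higher, with sums of 1.75 to 2.04 CPM in the control and 73.4 to 83.4 CPM in the KD libraries. Scgb1a1, Sftpc, Sftpa1, Sftpb and Sftpd had 0 counts in each control library, and Scgb1a1 had 1516 to 1843 in the KD libraries. Of 10 kidney epithelium markers, 7 were tested, of which 6 rose and 1 fell, and 4 were called higher (Kap, Umod, Slc34a1 and Lrp2), with sums of 16.9 to 19.7 CPM against 40.7 to 45.0 CPM. The one that fell was Cubn, a receptor of the proximal tubule, from 8.28 ± 0.132 to 6.07 ± 0.361 normalized CPM, without overlap. Of 10 endothelial and fibroblast markers, 6 were tested. Of these, Cdh5 was called higher, from 5 to 14 counts in the control to 2136 to 2243 in the KD libraries, while Pecam1 had 6 to 19 counts. Dcn and Pdgfra were called lower, with list sums of 175 to 194 CPM against 134 to 136 CPM. These sums were mostly Pdgfra, at 177 normalized CPM in the control, and Pdgfra and Cdh5, at 74.5 and 57.8, in the KD libraries, so they describe those genes rather than the list. The part of such cells in the increase of the ISG15 genes was not tested.

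For each member, the 3 genes with the most similar pattern were found by Pearson's r of log2 CPM over the 6 libraries, among 10889 other genes. The 6 libraries form 2 separate groups, so any gene with a clear difference between them gives a high r, and 25.5% to 26.3% of the genes had an r over 0.95. Ddx60, an interferon-induced helicase, was first for Uba7 (r = 0.9998) and for Herc6 (r = 0.9999), and Serpinb2 was the third for both. Oasl2, an interferon-induced gene of the oligoadenylate synthetase family, was second for Usp18, between Pmp22 and Apol9a, and Ifi47, an interferon-inducible GTPase, was the third for Isg15 after Nnmt and Hspbap1. Trim30d was second for Uba7, and Zyx for Herc6. For Ube2l6 the genes were Get4, N4bp1 and Glrx, whose log2 fold changes of 0.50, 0.79 and 0.52 are below that of Ube2l6, since r compares the shape of a pattern and not its size. When each value was taken less its group mean, 0 of these 15 matches were still among the 3 closest. Their r on those values was 0.8627 (Serpinb2 with Herc6) to 0.9867 (Trim30d with Uba7), so the rank was lost while r stayed high.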

How the data were processed

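Reads of 6 libraries were processed by the authors. The paper's methods name adapter trimming and HISAT2 with the hg19 genome, and the submitters' processing notes name hg38, HISAT2, featureCounts and DESeq2. The kits for RNA and libraries also differ between the paper and the labels. The deposited values are read counts per gene, without normalization, and neither annotation nor strandedness is given in the sources used here. Columns were assigned by their names, which are the sample descriptions.

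edgeR 4.0.16 in R 4.3.3 was run on these counts (filterByExpr with minimum count 10 and minimum total 15, TMM, group only, quasi-likelihood test, Benjamini-Hochberg over 13497 genes). Thresholds were an adjusted p under 0.05 and a fold change over 2, as in the paper's methods. Standard errors were derived from the F statistic. Library totals lay between 36979221 and 38799331 counts, TMM factors between 0.9901 and 1.0143, and the biological coefficient of variation was 5.21%. Chi-square per degree of freedom between libraries of a group was 3.38 to 6.19 (1 for sampling noise), so none was a duplicate. The pipeline was tested on simulated data. Alternatives were other scalings and filters, DESeq2 1.42.0, a replicate block, a test against a fold change of 1.5 and each library left out.

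The members and gene lists were chosen with earlier results of these data known. The genes named are the members, the genes of the lists of ISG15 enzymes, interferon signalling, HERC genes and LFA-1, up to 5 called genes of other lists by size, and the 3 genes most like each member (mean log2 CPM of at least 1, prior count 2). Others were named after their values were seen. A few genes counted in the lists are not reported here by name. Genes starting with Ube2 or Usp were taken by symbol, so that a few may not be E2 enzymes or deubiquitinases. Promoter windows are RefSeq's (GRCh38.p14), and no coordinates are given for the genes of the table, whose build is named differently in the 2 sources.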

Additional observations from a re-analysis of the deposited data

How the results depend on the processing

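All 5 members were called higher under each of 14 alternatives. Their log2 fold changes ranged from 1.92 to 2.04 for Isg15, 2.16 to 2.25 for Uba7, 1.73 to 1.82 for Ube2l6, 1.84 to 1.92 for Herc6 and 2.28 to 2.36 for Usp18, and the largest adjusted p of any of them was 9.34e-18 (edgeR's quasi-likelihood test). Over all genes, 1381 were called higher and 1347 lower. With at least 10 counts in every sample, a filter that tests fewer genes, 903 were called higher and 919 lower. Other settings gave more calls, with 1793 higher and 1570 lower without a low-count filter and 1666 and 1471 with DESeq2. The test against a fold change of 1.5 called 1856 higher and 1730 lower, by an adjusted p under 0.05 alone, without the threshold on fold change. Leaving out each library gave 1405 to 1488 higher and 1257 to 1392 lower genes. The labels number replicates 1 to 3 in both groups, but deviations of same-numbered libraries correlated by −0.02 to 0.04 over genes, so the numbers are not taken as pairs. With the replicate number as a block, 1360 genes were called higher, 1316 were called lower, and all 5 members were called (log2 fold changes 1.98 for Isg15, 2.20 for Uba7, 1.77 for Ube2l6, 1.88 for Herc6 and 2.32 for Usp18). In none of the 10 member ratios did the direction change with a pseudocount or a library left out. For 41 other genes of the lists, under 9 scalings and left-out libraries chosen after the data were seen, 360 of 369 values stayed on the same side of both thresholds (adjusted p under 0.05 and a fold change over 2) and 0 changed sign. Of the others, Irf9, Mocs3 and Usp24 dropped below the fold threshold, Usp2 and Herc3, which were not called, did not pass the adjusted p, and Ddx58 gained a call, each under the settings named with it, and the cause was not tested. Depth limits the genes with few counts (Itgal, Usp13, Ubd, Usp17lc, Usp17lb and the interferons), where a count of 0 allows up to 3 counts, and this covers counting error only.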
